A study of Homo sapiens with 6 samples.

Results

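The genes described here are the zinc finger genes of the long arm of human chromosome 19. A member was any protein-coding gene whose symbol is ZNF followed by a number and optional letters and whose gene record starts above position 28000000 of chromosome 19. The rule found 163 members among 20162 protein-coding genes on GRCh37, the build of the H3K27Ac peak lists, and the same 163 symbols among 19666 genes on GRCh38, the build of the H3K4me3 lists. The rule uses symbols and positions and no measured value, although it was proposed with earlier results of these data known. The first members past the limit were ZNF536, ZNF507 and ZNF302, and the last ZNF genes before it were ZNF681, ZNF726 and ZNF254, which lie on the other arm of the chromosome.

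Zinc finger genes of this chromosome arose by repeated local duplication and lie in clusters of related copies. Each encodes a row of zinc fingers, short loops held by a zinc ion that together read a DNA sequence. Many also carry a KRAB domain, which binds the corepressor TRIM28. TRIM28 in turn brings in the histone methyltransferase SETDB1, and the H3K9me3 that SETDB1 lays down silences transposable elements and other targets. The 3′ ends of these genes are themselves known targets of this silencing through ZNF274. H3K27Ac, an acetylated histone tail, is found at active promoters and enhancers, and H3K4me3, a trimethylated one, at active promoters.

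OCI-AML3 is an established human acute myeloid leukemia (AML) line with mutant NPM1 (mtNPM1). The cells received either sgNeg, a guide RNA that serves as control, or sgNpm1A, which targets the mutant gene, and were cultured for 3 days per the labels, whereas the study's methods give a longer time. H3K27Ac and H3K4me3 were mapped by ChIP with tagmentation on the beads. Each of the 4 peak lists came from 1 library. Without replicates no test between guides could be made, and each comparison below describes a pair of libraries. The 95% intervals of shares are Wilson intervals, and those of differences combine the Wilson intervals of both shares. They cover counting error over genes only.

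The lists held 327715 peaks for H3K27Ac in sgNeg, 317059 in sgNpm1A, 353628 for H3K4me3 in sgNeg and 106641 in sgNpm1A, and no read totals. They also ended at different limits. The largest q-value was 0.0707 in sgNeg and 0.0437 in sgNpm1A for H3K27Ac, and 0.0308 and 0.0226 for H3K4me3. At the promoter of NPM1, the targeted gene, both sgNeg lists had a peak and both sgNpm1A lists had none, and a peak list shows no edit. In sgNeg, 13 of 14 myeloid marker genes had an H3K27Ac promoter peak and 10 had an H3K4me3 promoter peak. For marker genes of other blood lineages these counts were 7 of 8 and 2 of 8. In sgNpm1A, H3K27Ac was at 8 of 14 myeloid and 7 of 8 other markers, and H3K4me3 at 0 of 14 and 1 of 8, so the myeloid markers did not lead in those lists. Over all genes the sgNpm1A lists were poor in promoters: 57% of genes had an H3K27Ac peak at the promoter and 9.49% an H3K4me3 peak, against 79.1% and 68.3% in sgNeg. All labels name OCI-AML3, but the H3K27Ac lists carry another name tag than the H3K4me3 lists, and what it stands for was not stated.

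Promoter sequences of 4 members are shown first. Each is the 250 bases before the transcript start, from RefSeq on GRCh38.p14, read 5′ to 3′ on the gene's strand, with CG dinucleotides in capitals. A peak need not cover these bases, since the median H3K4me3 summit of members in sgNeg lay 324.5 bp downstream of the start. ZNF460 had the highest H3K4me3 peak of all members in sgNeg, ZNF766 the highest H3K27Ac peak in sgNeg, and ZNF583 the highest H3K27Ac peak in sgNpm1A. ZNF154 had neither mark in any list.
ZNF460, chr19:57279732-57279981, plus strand: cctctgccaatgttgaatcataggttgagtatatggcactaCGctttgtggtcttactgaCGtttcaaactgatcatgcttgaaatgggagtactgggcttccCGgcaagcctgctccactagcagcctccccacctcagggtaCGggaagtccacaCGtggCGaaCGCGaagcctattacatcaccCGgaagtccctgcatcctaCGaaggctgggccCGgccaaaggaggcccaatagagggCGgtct
ZNF766, chr19:52269337-52269586, plus strand: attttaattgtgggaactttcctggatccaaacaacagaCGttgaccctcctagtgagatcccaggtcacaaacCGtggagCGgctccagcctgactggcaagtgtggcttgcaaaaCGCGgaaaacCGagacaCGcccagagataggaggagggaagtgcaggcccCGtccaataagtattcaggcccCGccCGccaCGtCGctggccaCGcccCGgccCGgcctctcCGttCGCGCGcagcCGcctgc
ZNF583, chr19:56403764-56404013, plus strand: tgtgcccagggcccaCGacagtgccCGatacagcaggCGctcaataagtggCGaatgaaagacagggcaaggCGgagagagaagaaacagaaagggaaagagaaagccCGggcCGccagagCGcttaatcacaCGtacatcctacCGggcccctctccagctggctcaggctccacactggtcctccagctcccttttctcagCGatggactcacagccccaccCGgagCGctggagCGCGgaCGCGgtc
ZNF154, chr19:57709205-57709454, minus strand: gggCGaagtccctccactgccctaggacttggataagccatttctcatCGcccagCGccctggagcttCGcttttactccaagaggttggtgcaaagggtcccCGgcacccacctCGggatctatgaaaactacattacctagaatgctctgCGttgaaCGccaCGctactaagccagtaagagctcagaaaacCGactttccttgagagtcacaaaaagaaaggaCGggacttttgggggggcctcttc
The 250 bases hold 12 CG dinucleotides in ZNF460, 20 in ZNF766, 17 in ZNF583 and 11 in ZNF154. The member without marks and the member with the highest H3K4me3 peak are thus alike in this count.

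The first question was how many member promoters carried each mark in control cells. Promoters reached 1 kb up and downstream of each annotated transcript start, and 1 bp of overlap with a peak was enough. In sgNeg, 139 of 163 members (85.3%, 79.0 to 89.9) had an H3K27Ac peak, where the background over all coding genes was 79.1%. The share in the other 1317 coding genes of chromosome 19 was 86.6% (84.6 to 88.3), so that the members minus the others came to -1.28 percentage points (-7.77 to 3.74). H3K4me3 was present in sgNeg at 124 members (76.1%, 69.0 to 82.0), over a background of 68.3%. The other 1243 genes of chromosome 19 had 68.2% (65.6 to 70.8), a difference of 7.85 points (0.313 to 14.3) with members higher. This difference was 2.84 points within 2 kb, 3.90 with the gene record start alone and 1.26 among the top 20000 peaks, each with an interval that included 0. It was 3.52 points (-4.89 to 10.9) when members with another coding start within 1 kb were left out. The other genes were not filtered in the same way, so this value does not compare like with like. Against the other long-arm genes the difference for all members was 12.8 points (4.77 to 19.8). For the 83 ZNF genes of the chromosome below the limit, the shares were 81.9% and 74.7%. For ZNF genes of other chromosomes they were 86.3% and 76.5%.

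Member windows were moved 20 kb along the chromosome, and moved windows that touched a coding promoter were left out. A window remained for 140 to 143 members. These windows showed what the lists hold in the same neighbourhoods by position alone. In sgNeg, moved windows held an H3K27Ac peak for 30.1% and 28% of these members and an H3K4me3 peak for 25.7% and 22%. Moved windows of the other genes held more, with 60.9% and 60.3% for H3K27Ac and 37.4% and 36.2% for H3K4me3. The gap between promoters and moved windows was thus wider in members than in the other genes, and it was not tested. A gene could keep fewer windows after the move than it has starts, so promoter and moved shares are not on the same footing.

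**Figure D1:**
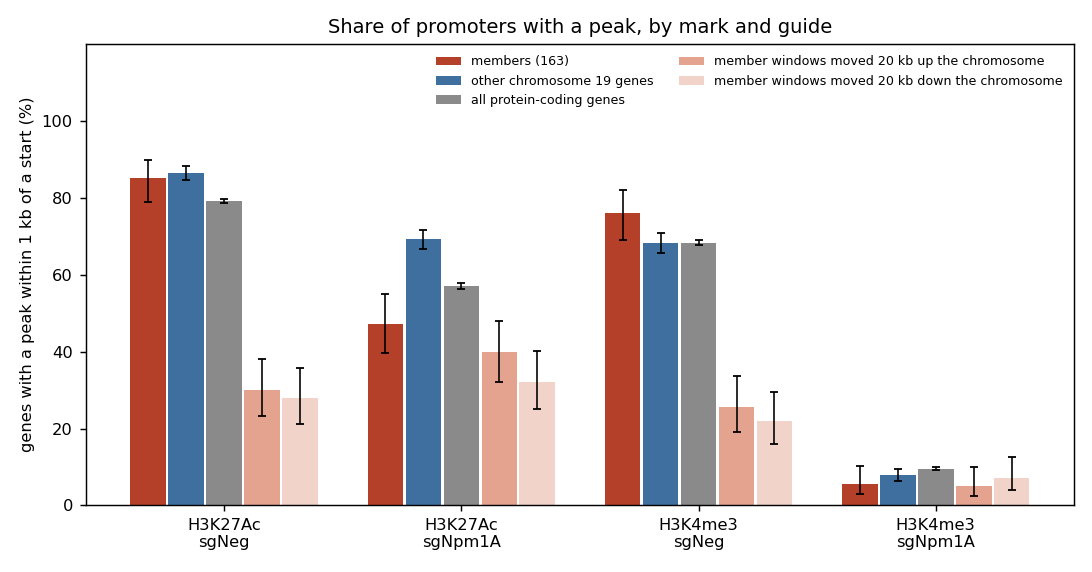
Share of genes (y axis, %) with a peak within 1 kb of a transcript start, for each mark and guide (x axis). Bars are the 163 members, the other chromosome 19 genes, all protein-coding genes, and member windows moved 20 kb in either direction, with 95% Wilson intervals as error bars. In sgNeg the members stand at 85.3% and 76.1%, far above their moved windows, and in sgNpm1A H3K4me3 they stand at 5.52%, between the moved windows at 5.0% and 7.09%.

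Coverage by peaks around the gene start showed the same contrast. In sgNeg, H3K27Ac peaks covered on average 51.8% of member bases within 500 bp of the start and 7.32% of bases 3 to 5 kb away, a ratio of 7.08. The other genes of the chromosome had 52.4% and 21.3%, a ratio of 2.45. For H3K4me3 the ratio was 7.41 in members and 3.69 in the other genes. Gene bodies showed little H3K27Ac in members, with 4.37% of their length under peaks against 18.2% in other genes. Near the gene end, 25.9% of members had an H3K27Ac peak and 62.5% of other genes did. The summit of the highest H3K4me3 peak lay a median of 324.5 bp downstream of the nearest start in members and 335.5 bp in the other genes.

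**Figure D2:**
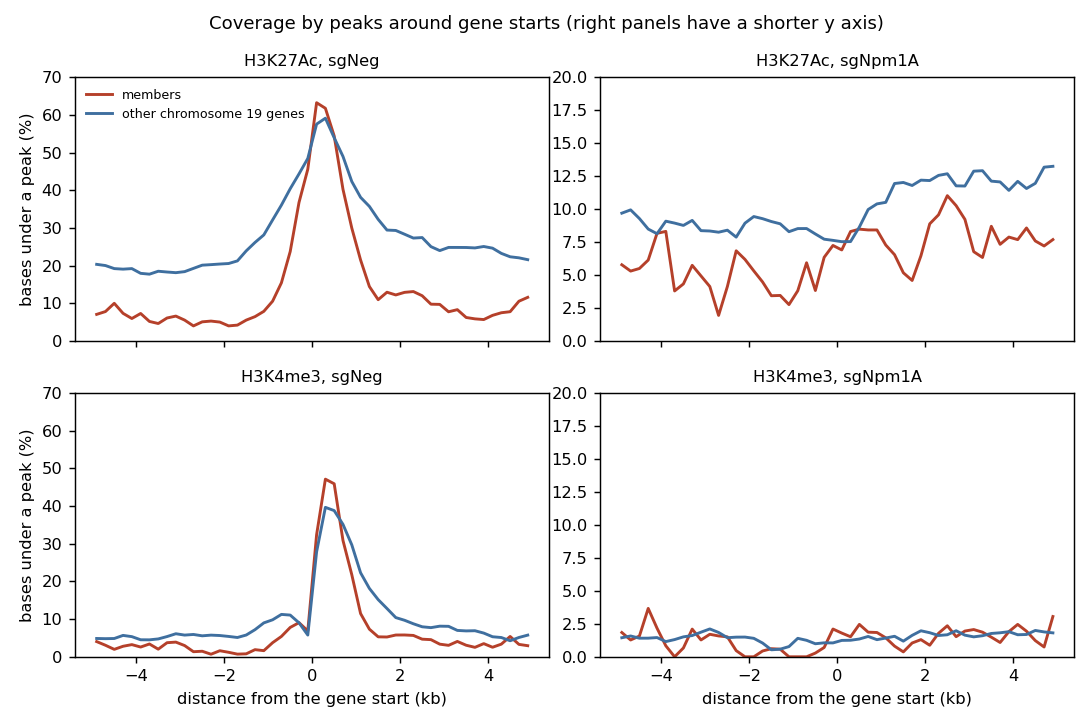
Share of bases under a peak (y axis, %) against distance from the gene start in the direction of the gene (x axis, kb), for the 163 members and the other chromosome 19 genes. In sgNeg both marks rise to a narrow hill at the start, with lower flanks in members, and in sgNpm1A, drawn on a shorter y axis, no such hill is seen in either set of genes.

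The height of a peak was read as its percentile by fold enrichment within its own list, since fold values are scaled within a list. The median H3K27Ac percentile of members with a peak was 95.7 in sgNeg, against 96.3 in the other genes. For H3K4me3 it was 95.2 against 97.7. The other genes of the long arm stood at 94.8 for H3K27Ac, below the members, and at 95.2 for H3K4me3, level with them. In sgNpm1A the H3K27Ac median was 55.6 in members and 69.1 in the other genes of the chromosome. The H3K4me3 median there went the other way, with 73.3 in 9 members and 43.9 in the other genes. At the top of the scale the members were scarce. A peak at or above the 99th percentile was seen at 5 members for H3K27Ac (3.07%) and at 14 members for H3K4me3 (8.59%), where the backgrounds over all genes were 15.4% and 15.9%. The other long-arm genes had 10.2% and 10.7%. ZNF genes of the chromosome below the limit had 13.3% and 3.61%, and those of other chromosomes 24.0% and 20.8%. At a q-value under 1e-05, 48 members (29.4%) had an H3K27Ac peak over a background of 35.6%, and 100 members (61.3%) had an H3K4me3 peak over a background of 53.4%. The members' share at the top of both lists was thus below the background, while at the q-value limit it was below for H3K27Ac and above for H3K4me3.

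The width of distinct promoter peaks was compared within each list, because the lists had different floors. The narrowest peak was 110 bp in both sgNeg lists. In sgNpm1A it was 140 bp for H3K27Ac and 245 bp for H3K4me3, so widths of different lists are not on the same footing. In sgNeg the median was 800 bp in members and 741 bp in other genes for H3K27Ac, and 458 bp and 391 bp for H3K4me3. In sgNpm1A it was 396.5 bp in members and 537 bp in other genes for H3K27Ac, and 413.5 bp and 387 bp for H3K4me3. When only the highest peak of each gene was taken in sgNeg, members had the narrower peaks, with 1050 bp against 1542 bp for H3K27Ac and 553 bp against 655 bp for H3K4me3.

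Among single members, ZNF766 had the highest H3K27Ac peak in sgNeg, 7.07-fold over background at a percentile of 99.6, and its H3K4me3 peak was 6.66-fold. Its gene record spans 52772840 to 52799299 on the plus strand of GRCh37. The sgNpm1A lists had no peak at ZNF766 for either mark. The next H3K27Ac peaks in sgNeg were those of ZNF230 (6.01-fold), ZNF780A (5.92-fold), ZNF787 (5.84-fold) and ZNF428 (5.77-fold). The widest was 1 peak of 8088 bp that spans the promoters of ZNF524 and ZNF865, followed by 6472 bp at ZNF837 and 6429 bp at ZNF580 and ZNF581. ZNF580 and ZNF581 also share a promoter region with CCDC106 in this annotation, so their H3K27Ac peaks cannot be assigned to 1 gene.

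The 5 highest H3K4me3 peaks of members in sgNeg were all in the last cluster of the arm. ZNF460 had 11.9-fold at a percentile of 99.8, with a peak of 1083 bp. It was followed by ZNF584 (10.6-fold), ZNF264 (10.4-fold), ZNF17 (10.2-fold) and ZNF549 (9.78-fold). The same members were less prominent for H3K27Ac: ZNF460 stood at 5.42-fold and ZNF549 at 3.36-fold. The widest H3K4me3 peak was 1823 bp at ZNF787, then 1735 bp at ZNF581 and 1588 bp at ZNF579. H3K4me3 fold values come in steps of 0.208 in sgNeg and 0.254 in sgNpm1A, so several members share a value exactly.

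Members with a known role covered the range from high to unmarked in sgNeg. ZNF296 had H3K27Ac at 5.15-fold and H3K4me3 at 7.49-fold. ZNF146, which consists of little but fingers, had 5.00-fold and 5.82-fold, but ZNF565 starts within 1 kb of it. ZNF331, an imprinted gene, had 4.58-fold and 6.86-fold.
ZNF224, a transcriptional repressor and partner of WT1, had 3.65-fold for H3K27Ac and 6.45-fold for H3K4me3. ZNF274, the factor bound at the 3′ ends of its own family, had 3.85-fold and 3.54-fold. ZNF444, which carries a SCAN domain, had 3.38-fold and 5.62-fold.
ZNF382, reported as silenced in several tumours, had 3.40-fold for H3K27Ac and 4.78-fold for H3K4me3, and shares its promoter region with ZNF529. ZNF671 and ZNF154 are both known for promoter methylation in carcinomas. ZNF671 had H3K27Ac at 4.10-fold and H3K4me3 at 5.82-fold, whereas ZNF154 had no peak in any of the 4 lists. ZNF180 had 4.45-fold and 5.82-fold, and ZNF580 had 4.75-fold and 5.82-fold. Of these 11 genes, 10 thus carried both marks in sgNeg, where 72.4% of all members did.

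Most members had both marks, though not necessarily at the same start. In sgNeg, 118 members had both, 21 had H3K27Ac alone, 6 had H3K4me3 alone and 18 had neither. H3K27Ac was sought at 1035 member starts, a median of 5 per gene, and H3K4me3 at 234, a median of 1. A member thus had more windows for H3K27Ac, and the counts with 1 mark alone are not on the same footing. Both marks were seen at 72.4% of members and 66.0% of the other chromosome 19 genes, H3K27Ac alone at 12.9% and 20.7%, H3K4me3 alone at 3.68% and 2.38%, and neither at 11% and 10.9%. The members with H3K4me3 alone were ZNF793, ZNF540, ZNF571, ZNF285, ZNF665 and ZNF418, of which ZNF571, ZNF665 and ZNF418 are named after their values were seen. Among the unmarked were ZNF536, which represses neuronal differentiation, and ZNF154, ZNF160, ZNF578 and ZNF814. Across the members, Spearman's rho between the percentiles of both marks was 0.471 (n = 163), with 0 for no peak, and 0.686 across the other chromosome 19 genes (n = 1221). The points come from the same pair of libraries, and neighbouring members can share a peak.

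Some members share their promoter with a second gene. Of 25 members with another coding start within 1 kb on GRCh38, 25 had H3K4me3 in sgNeg (100%, 86.7 to 100), against 99 of the 138 others (71.7%, 63.7 to 78.6). Some of the 25 are neighbouring members with the same peak, such as ZNF565 and ZNF146. The interval counts such a peak for each of them as if they were separate. For H3K27Ac, where GRCh37 lists 44 such members, the shares were 88.6% and 84.0%. Beside this, members with and without a neighbouring start had the same median H3K4me3 percentile, 95.2.

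H3K4me3 varied along the arm. Members whose starts lie within 500 kb of each other were joined into subclusters, 14 in all, of which 5 hold at least 10 members. Subcluster 4, from ZNF565 to ZNF573, had H3K4me3 in sgNeg at 24 of 26 members (92.3%, 75.9 to 97.9). Subcluster 12, from ZNF175 to ZNF331, had it at 21 of 39 (53.8%, 38.6 to 68.4). Subcluster 7 (ZNF575 to ZNF180), subcluster 13 (ZNF628 to ZNF835) and subcluster 14 (ZNF264 to ZNF446) had 78.3%, 81.3% and 86.0%. H3K27Ac in sgNeg showed a smaller range, from 76.9% in subcluster 12 to 100% in subcluster 13. Subcluster 12 was lowest of these 5 for both marks, and its interval for H3K4me3 did not meet those of subclusters 4 and 14. Many members of subcluster 4 start within 1 kb of another coding gene, and neighbours such as ZNF565 and ZNF146 have the same peak. Its interval counts such a peak more than once, and the part of shared promoters in the contrast was not tested.

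**Figure D3:**
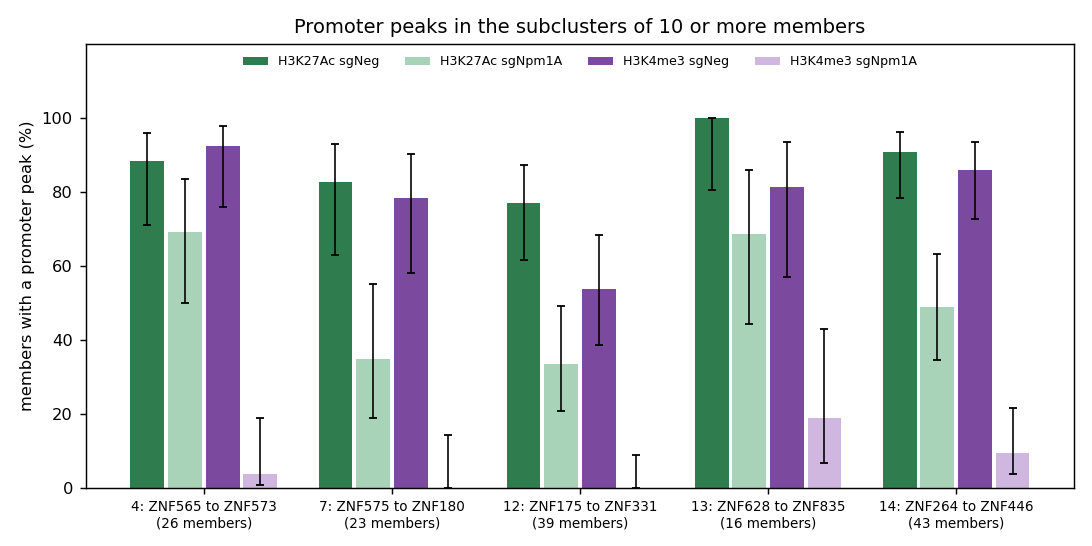
Share of members with a promoter peak (y axis, %) in the 5 subclusters of at least 10 members (x axis), for each mark and guide, with 95% Wilson intervals as error bars. Subcluster 12 has the lowest H3K4me3 share in sgNeg, 53.8%, and the H3K4me3 bars of sgNpm1A are at 0 in subclusters 7 and 12.

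Member promoters were compared with others by their CG content. Of the 163 members, 143 have a promoter sequence in RefSeq, from 250 bases before to 50 after the start. Their median CG count was 22, the same as over all coding promoters, and their median GC content was 61%, against 62.7% over all. The median observed over expected CG ratio was 0.820 in members, 0.708 in 1042 other promoters of the chromosome and 0.761 over all. A ratio above 0.6 was found in 91.6% of members, 58.6% of the other promoters of the chromosome and 65.5% of all. In the other genes the share with H3K4me3 in sgNeg went up with this ratio, from 55.5% at 0.6 or less to 68.5% between 0.6 and 0.8 and 87.4% above 0.8. In members it was 75% (9 of 12), 87.5% (42 of 48) and 73.5% (61 of 83) over the same classes. The class above 0.8 had an interval of 63.1 to 81.8 in members and 83.8 to 90.3 in the other genes. Members with and without H3K4me3 had much the same CG count, a median of 22 and 23 in 300 bases.

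**Figure D4:**
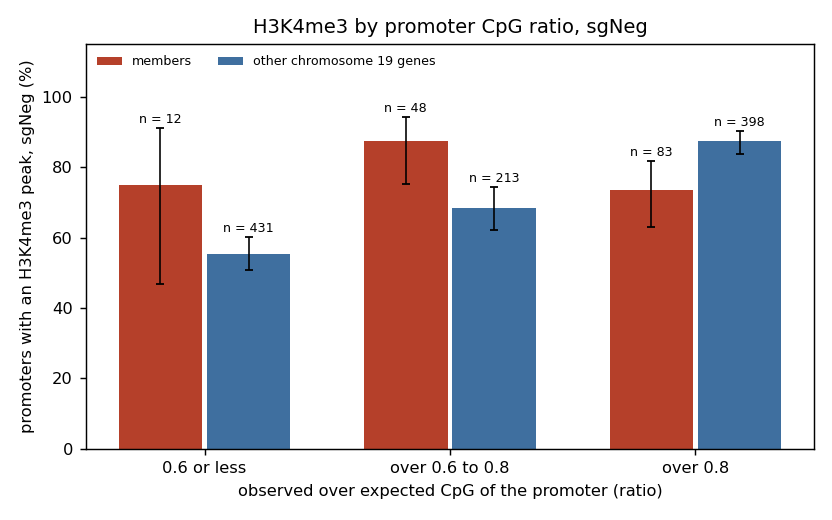
Share of promoters with an H3K4me3 peak in sgNeg (y axis, %) by observed over expected CpG ratio of the promoter (x axis, 3 classes), for members and other chromosome 19 genes, with 95% Wilson intervals and the number of promoters above each bar. The bars of the other genes climb from 55.5% to 87.4%, while those of the members stand at 75%, 87.5% and 73.5%.

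Short letter patterns were then counted on both strands of the 300 bases. CCGGAAG, the core letters bound by ETS family factors, stood in 69 of 143 member promoters (48.3%). It stood in 14.8% of the other chromosome 19 promoters and in 14.2% of all 15843 promoters of this length. In the 73 promoters of ZNF genes of the chromosome below the limit it stood in 38.4%, so a high share was not seen in the long-arm members alone. Among promoters with a CG ratio above 0.6 the shares were 48.1% in members and 19.3% in the other genes. In 56 of the 69 the match nearest to the start lay within 50 bases of it (81.2%). The NRF1 motif stood in 16.8% of members, 9.98% of other promoters and 8.59% of all. TATAAA stood in 1.40%, 7.77% and 9.75%, GGGCGG in 59.4%, 66.9% and 58.3%, and CCAAT in 39.9%, 40.5% and 36.4%. AANATGGCG stood in 6.29%, 6.43% and 4.78%, and TGACGTCA in 1.40%, 3.65% and 2.56%. A match describes the letters and is not evidence of a bound factor.

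The bases around CCGGAAG were compared within and between subclusters. Stretches of 30 bases around the match nearest to the start are shown for 5 members of subcluster 12 and 5 of subcluster 14, on GRCh38.p14, to let the shared letters be seen. The matched letters are in capitals, and each stretch is read on the strand that holds CCGGAAG. ZNF845, ZNF765, ZNF813 and ZNF419 were picked after their sequences were seen. The stretches shown are examples and do not stand for all members of their subclusters.
ZNF766, chr19:52269579-52269608, plus strand: ccgcctgcagacCCGGAAGtggatggcgtg
ZNF578, chr19:52453555-52453584, plus strand: tttcctgaagacCCGGAAGccgatcgcgtg
ZNF845, chr19:53333741-53333770, plus strand: attcgcgcaaacCCGGAAGcggatcgcatg
ZNF765, chr19:53395141-53395170, plus strand: cttcgcgcagacCCGGAAGcggacggcgtg
ZNF813, chr19:53467737-53467766, plus strand: attcgcgaaaacCCGGAAGcggatcgcgtg
ZNF264, chr19:57191463-57191492, minus strand: gcagcgagcaacCCGGAAGtcccgccccca
ZNF547, chr19:57363413-57363442, minus strand: ggcaagaggacgCCGGAAGtcccgccctcc
ZNF419, chr19:57487722-57487751, minus strand: ccaaacgagacgCCGGAAGtcccgcccatt
ZNF671, chr19:57727622-57727651, plus strand: tacaaggaggagCCGGAAGtcccgcccacg
ZNF132, chr19:58440149-58440178, plus strand: gcaatggcggcgCCGGAAGtcccgcctctc
In the first 5, the match lies on the gene's own strand at or just after the start. In the last 5 it lies on the opposite strand, before the start. Other members of these subclusters differ. In subcluster 14, ZNF460 has the match on the gene's own strand, and in ZNF274 it lies after the start. The letters after the match in ZNF460 and ZNF274 also differ from those of the last 5. In ZNF175 of subcluster 12 the match lies before the start. Pairs of stretches from the same subcluster shared a median of 17 of 30 bases, and pairs from different subclusters shared 13, with the 7 matched letters shared by selection. The median was 21 within subcluster 12, 17 within subcluster 4, 16 within subcluster 14, 15 within subcluster 3 and 14 within subclusters 7 and 13. Of the 88 pairs from the same subcluster that shared at least 22 bases, a limit set after the values were seen, 72 lay in subcluster 12. ZNF845 and ZNF813 share 28 of the 30 bases.

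Among members, the intervals of promoters with and without these letters overlapped for H3K4me3. It was present in sgNeg at 75.4% of the 69 members that hold CCGGAAG (64.0 to 84.0) and at 81.1% of the 74 that lack it (70.7 to 88.4). H3K27Ac in sgNeg was present at 88.4% and 86.5%. In the other chromosome 19 promoters the H3K4me3 shares were 84.4% with the letters and 67.9% without. Subcluster 12 combined the letters in 62.5% of its promoters with the lowest H3K4me3 share, and 10 of its 20 promoters with the letters had a peak. Subcluster 14 held them in 67.5%, and 23 of its 27 promoters with the letters had a peak. Of the 143 promoters, 2 shared a run of at least 50 bases with a member elsewhere, ZNF587B and ZNF814. A missing peak at either is uncertain, since the treatment of reads that match both was not stated. The search covered these 300 bases alone, so shared sequence further downstream, where most H3K4me3 summits lay, was not looked for. Members without a promoter sequence were not searched. Missing peaks at other members, those of subcluster 12 among them, can thus be uncertain for the same reason.

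The second question was how the sgNpm1A lists compared with those of sgNeg at the same promoters. For H3K27Ac, 77 members (47.2%, 39.7 to 54.9) had a peak in sgNpm1A, over a background of 57%. The other chromosome 19 genes had 69.2% (66.6 to 71.6), and the members minus these came to -21.9 points (-29.8 to -13.9). Moved windows held a peak for 39.9% and 32.2% of members, so that the promoters stood little above their surroundings. For the other genes, moved windows held a peak in 51.6% and 52.8%, so members were lower away from promoters as well. Coverage within 500 bp of the start was 1.08 times that at 3 to 5 kb in members and 0.713 times in the other genes, and the part of this flat profile in the gap was not tested. With the start of the gene record as the only start, 28.8% of members had a peak, and the members minus the other genes came to -7.92 points.

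Member by member, 68 had an H3K27Ac peak in both lists (41.7%, over a background of 52.2%), 71 in sgNeg alone (43.6%, over a background of 26.9%), 9 in sgNpm1A alone (5.52%, over a background of 4.86%) and 15 in neither. The sgNeg list ran to a larger q-value, so a weak peak could be listed there and not in sgNpm1A. Of the 139 members with a peak in sgNeg, 48.9% also had 1 in sgNpm1A, against 74.8% of the other genes. This share was between 40.0% and 60.0% of members in each of 4 classes of sgNeg percentile and between 73.3% and 75.8% of the other genes, and the classes of members held 5 to 95 genes. In 54 of the 68 members with a peak in both, the peaks of both guides overlapped. The percentile was lower in sgNpm1A at 128 members (background 65.6%) and higher at 20 (background 18.4%). The ZNF genes of the chromosome below the limit had 27.7% in sgNpm1A, lower than the members, and those of other chromosomes had 47.5%.

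The subclusters spread more widely for this guide. In sgNpm1A, H3K27Ac was present at 69.2% of subcluster 4 (50 to 83.5) and 68.8% of subcluster 13 (44.4 to 85.8). It was present at 34.8% of subcluster 7, 33.3% of subcluster 12 (20.6 to 49.0) and 48.8% of subcluster 14. Members that share a promoter with another coding gene had 68.2% and the others 39.5%.

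**Figure D5:**
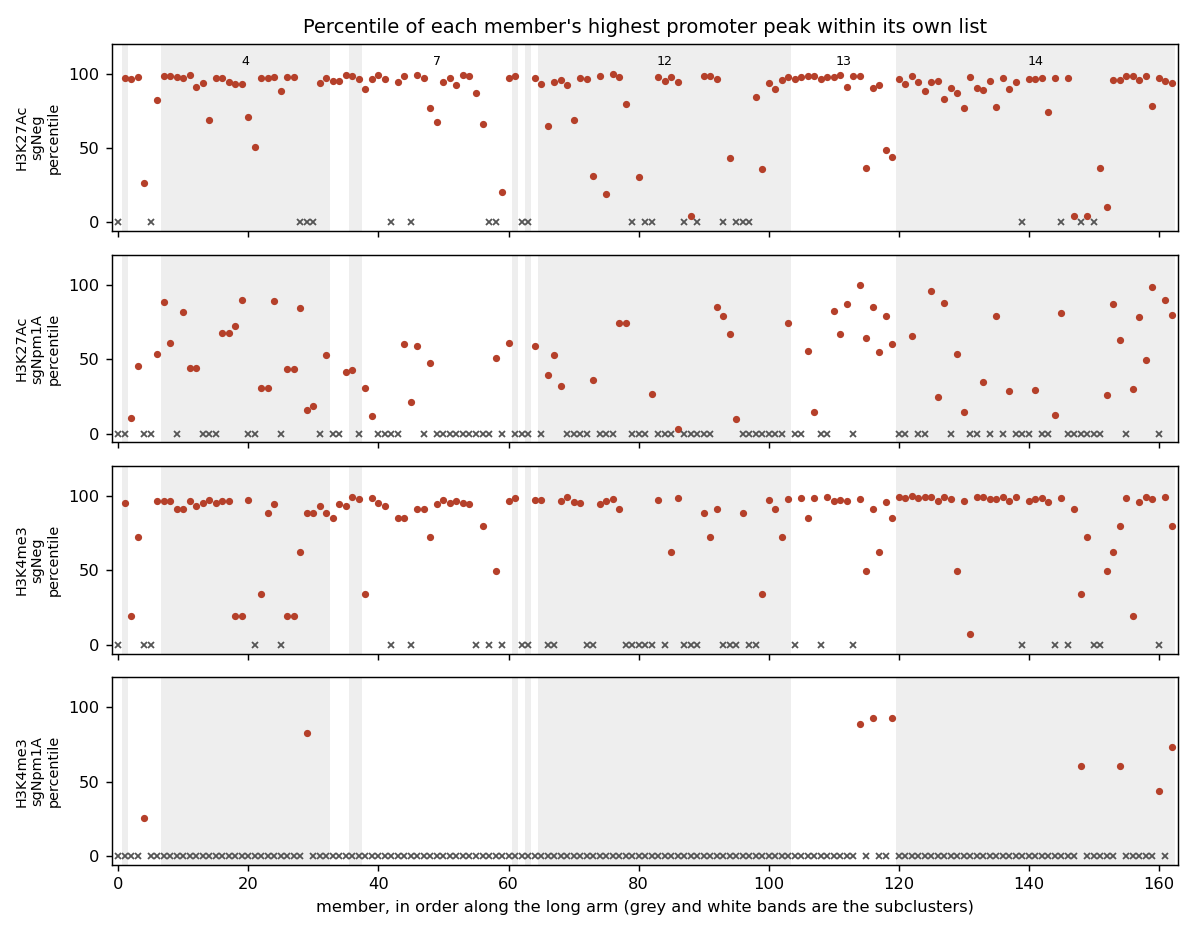
Percentile of each member's highest promoter peak within its own list (y axis), for the 163 members in order along the long arm (x axis), in 4 panels for mark and guide. Dots are members with a peak and crosses on the zero line are members without, and the numbers name the subclusters of at least 10 members. In sgNeg most dots lie near the top, in sgNpm1A H3K27Ac they scatter over the scale, and in sgNpm1A H3K4me3 9 dots remain.

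Fold values of different lists are set side by side below and were not scaled to each other. ZNF583 had the highest H3K27Ac peak of the members in sgNpm1A, 6.32-fold at a percentile of 99.9, after 4.99-fold and 98.2 in sgNeg. It was the 1 member with a q-value under 1e-05 in that list, 1.2e-11, where the background was 0.903%, and the 1 member at or above the 99th percentile, where the background was 0.992%, and its peaks in both lists overlapped. ZNF132 had 4.16-fold in sgNpm1A and 3.05-fold in sgNeg, at separate places. ZNF547 had 3.77-fold after 3.62-fold, and ZNF324 and ZNF568 each had 3.46-fold, after 3.80-fold and 3.54-fold. ZNF568 represses a placental transcript of Igf2 in the mouse.
In ZNF547, ZNF324 and ZNF568 the highest peak in sgNpm1A lay apart from the highest in sgNeg. The widest peaks in sgNpm1A were 4360 bp at ZNF473, a factor of histone mRNA 3′ processing, 3514 bp at ZNF772 and 3141 bp at ZNF471.
Of the members with a peak in sgNpm1A alone, the highest were ZNF793 (3.33-fold), ZNF814 (3.26-fold), ZNF160 (3.23-fold), ZNF285 (2.95-fold) and ZNF578 (2.79-fold).

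H3K4me3 in sgNpm1A was found at 9 members (5.52%, 2.93 to 10.2), over a background of 9.49%, and at 7.80% of the other genes (6.44 to 9.43). Moved member windows had 5.0% and 7.09%, and moved windows of the other genes had 12.4% and 14.3%. Of the 9, 7 also had a peak in sgNeg (4.29% of members, over a background of 7.81%) and 2 did not, ZNF132 and ZNF599, over a background of 1.68% for a peak in sgNpm1A alone. A peak in sgNeg alone was seen at 117 members (71.8%, over a background of 60.5%), and 37 members had none in either list. Here too the sgNeg list ran to a larger q-value, so these counts do not compare like with like. The share with a peak in sgNeg alone was 74.7% in ZNF genes of the chromosome below the limit and 72.7% in those of other chromosomes. In sgNpm1A these sets had H3K4me3 at 0% and 4.55%, so the low share was not seen in the members alone. The percentile was lower in sgNpm1A at 121 members (background 65.8%) and higher at 5 (background 4.26%).

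A q-value under 1e-05 was reached by 3 of the 9 (1.84% of members, over a background of 1.62%) and the 99th percentile by 0, over a background of 0.188%. The 9 members did not include the highest of sgNeg. ZNF471 had 4.83-fold in sgNpm1A after 4.58-fold in sgNeg, and ZNF835 had 4.83-fold after 4.16-fold. ZNF583 had 4.58-fold after 7.07-fold, and its peaks of both guides overlapped. ZNF540 had 4.32-fold after 4.37-fold, at separate places. ZNF446 had 4.07-fold after 3.95-fold, at separate places. ZNF418 and ZNF544, named after their values were seen, had 3.82-fold each. None of the 14 members at or above the 99th percentile in sgNeg had a peak in sgNpm1A. ZNF583, ZNF471, ZNF835, ZNF446, ZNF544 and ZNF132 had a peak of both marks in sgNpm1A, as did ZNF540.

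The proteins of the members were compared by their fingers, counted in the longest open reading frame of the GENCODE coding transcripts. The median was 13 fingers, with a range from 1 to 30. In sgNeg, H3K4me3 was present at 80.0% of the 35 members with at most 8 fingers, 79.0% of the 62 with 9 to 13 and 71.2% of the 66 with more. H3K27Ac was present at 91.4%, 83.9% and 83.3%. The intervals of these classes overlapped for both marks.

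The silencing machinery that KRAB zinc finger proteins recruit was described from a list of 18 genes. Of these, 18 had an H3K27Ac promoter peak in sgNeg, over a background of 79.1%, and 17 had H3K4me3, over a background of 68.3%, with ATF7IP, a partner of SETDB1, as the exception. TRIM28, which lies on the same chromosome arm, had H3K4me3 at 15.6-fold and a percentile of 99.97, higher than any member, and H3K27Ac at 4.92-fold. SETDB1 had H3K4me3 at 5.20-fold and H3K27Ac at 4.90-fold. CBX3, an HP1 protein that binds H3K9me3, had H3K4me3 at 8.11-fold and H3K27Ac at 10.3-fold. In sgNpm1A, 12 of the 18 had H3K27Ac and 0 had H3K4me3, over backgrounds of 57% and 9.49%. The DNA methyltransferase DNMT1 was at 6.91-fold for H3K27Ac in sgNeg and 3.48-fold in sgNpm1A.

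At the limit of the rule, ZNF254, the last gene before it, had H3K27Ac at 6.07-fold and H3K4me3 at 5.62-fold in sgNeg. ZNF507 and ZNF302, just inside, had H3K27Ac at 4.38-fold and 4.15-fold and H3K4me3 at 5.20-fold and 2.91-fold. ZNF536, the first member, and ZNF681, outside the rule, had no peak in any list.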

How the data were processed

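ChIP-seq peak lists of H3K27Ac and H3K4me3 in OCI-AML3 cells were used for 2 guides, with 1 library each, and 2 inputs were not used here. The submitters' processing notes name bcl2fastq 2.17, Trimmomatic 0.33, Bowtie 1.1.2, MACS2 2.1.0 and deepTools. The authors called peaks per library and deposited for each a fold enrichment, which is a linear ratio over background, the −log10 p-value, the −log10 q-value and a score. The peak ends fit GRCh37 for H3K27Ac and GRCh38 for H3K4me3, whereas the notes name hg38 alone, so each mark was joined to genes in its own build and no coordinate was converted.

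Transcript starts came from GENCODE v44 lifted to GRCh37 (1035 starts of members) and from RefSeq on GRCh38 (234 starts), so shares of different marks are not on the same footing. A gene had a mark if a peak overlapped a window of 1 kb to each side of any start by 1 bp. Its height was the percentile of its highest peak by fold enrichment in its own list. Moved windows that touched a coding promoter were left out, and the shares are over genes with a window left. Read totals were not given in the lists, so depth was unknown. Intervals of shares are Wilson 95% intervals, and those of differences combine the Wilson intervals of both shares by Newcombe's method. For median widths and percentiles, the intervals behind the alternatives were taken from the ranked values. With 1 library per group no p-value was computed. Fingers were counted in reading frames of coding transcripts instead of in RefSeq proteins, and a count of KRAB domains was dropped because the pattern was unreliable. Python 3.11.15, numpy 2.4.6, pandas 2.3.3, scipy 1.17.1 and matplotlib 3.10.9 were used, and the overlap code was tested on simulated data.

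Named members were the 5 highest and 3 widest promoter peaks of each list, the 5 highest in sgNpm1A among members without a peak in sgNeg, the genes at the start limit, and a list of 11 known genes. The members and lists were chosen with earlier results of these data known. Alternatives were another window, start, threshold and gene filter.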

Additional observations from a re-analysis of the deposited data

Results flagged for a closer look

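The difference between members and the other chromosome 19 genes in the share with an H3K4me3 promoter peak had opposite signs under the 2 guides. It was 7.85 percentage points in sgNeg, with members higher, and -2.28 points in sgNpm1A, with members lower. It was picked because of this change of sign. Each guide had 1 library, so the difference between guides was not tested, and the interval in sgNpm1A, from -5.34 to 2.55, included 0.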

How the results depend on the processing

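No paired analysis was possible because each group had 1 library. Of 128 alternative values, 97 moved by less than their counting interval, 31 moved beyond it and 0 reversed a difference whose interval excluded 0. A reversal could be counted only for the differences of H3K27Ac in sgNpm1A and of H3K4me3 in sgNeg, with 11 alternatives each. The cause of the moves was not tested, except that stricter thresholds keep fewer peaks. The share of members with H3K27Ac in sgNeg was 77.3% with the gene record start alone, 69.9% at q under 0.01, 29.4% at q under 1e-05, 38% at fold 4 or more and 52.8% among the top 20000 peaks. In sgNpm1A it was 36.2% within 500 bp, 62.6% within 2 kb, 28.8% with the gene record start alone, 17.2% at q under 0.01, 0.613% at q under 1e-05, 1.23% at fold 4, 1.84% in the top 20000 and 39.5% without promoters shared with another coding gene. For H3K4me3 in sgNeg it was 68.1%, 61.3%, 59.5% and 44.8% with the gene record start, q under 1e-05, fold 4 and the top 20000, and in sgNpm1A 1.84% at q under 1e-05 and 2.45% in the top 20000. The difference from other chromosome 19 genes became 4.49 points at q under 0.01 and -8.14 at q under 1e-05 for H3K27Ac in sgNeg. In sgNpm1A it became -7.92 with the gene record start, -0.298 at q under 1e-05, -1.20 at fold 4 and -6.28 in the top 20000, and for H3K4me3 in sgNpm1A -5.51 within 2 kb. It lay below 0 in all 11 alternatives for H3K27Ac in sgNpm1A and above 0 in all 11 for H3K4me3 in sgNeg, but on both sides for the other lists. For H3K4me3 in sgNeg the interval included 0 in 4 of these. They were 2.84 points within 2 kb, 3.90 with the gene record start, 1.26 in the top 20000 and 3.52 without shared promoters. The last of these left shared promoters out of the members only, and the other genes were not filtered. Median H3K27Ac width was 1198 bp in sgNeg at q under 0.01, and in sgNpm1A 334.5 bp with the gene record start and 528 bp at q under 0.01. The median H3K27Ac percentile at q under 0.01 was 96.5 in sgNeg and 82.2 in sgNpm1A.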
